A study of Mus musculus with 4 samples.

Results

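The transcripts of 10 genes for enzymes that add or remove methyl groups at lysine 4 of histone H3 (H3K4) were examined in NIH/3T3 cells, a line of immortalised mouse fibroblasts, after siRNA knockdown of *Setd2*. The genes were the methyltransferases *Kmt2a*, *Kmt2b*, *Kmt2c*, *Kmt2d*, *Setd1a* and *Setd1b* and the demethylases *Kdm5a*, *Kdm5b*, *Kdm5c* and *Kdm1a*. Every tested transcript whose gene symbol equalled one of these names was taken, which gave 19 of 34200 transcripts and 10 of 21945 genes. The rule itself used no measured value, but the genes were chosen with earlier results of these data known. All 10 genes had at least 1 tested transcript.

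H3K4 methylation marks the start sites and enhancers of active genes, whereas methylation of lysine 36, the mark that SETD2 places in its trimethylated form, lies over the bodies of transcribed genes. The enzymes of the KMT2 and SETD1 families work in large complexes around a shared core of WDR5, RBBP5, ASH2L and DPY30. SETD1A and SETD1B are the main writers of trimethylation at promoters, KMT2A and KMT2B act at subsets of promoters, and KMT2C and KMT2D place monomethylation at enhancers. The KDM5 enzymes remove tri- and dimethylation, and KDM1A removes di- and monomethylation as part of the CoREST complex.

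The KD group was transfected with a pair of *Setd2*-specific siRNAs together and the WT group with a non-targeting Scrambled siRNA, at a final concentration of 10 nM. Polyadenylated RNA was sequenced 48 h later in stranded libraries, 2 for each group. The series describes independent transfections, but the labels do not tie a library to a transfection, so the tests measure the spread between these libraries only. The comparison that the authors deposited was used, and values of single libraries were not analysed here, so the depth of a library is unknown. Levels are given as normalised estimated counts, computed for each group from the deposited mean and effect. The 95% intervals take the deposited standard error with a normal quantile. They are narrower than intervals that allow for the 2 residual degrees of freedom would be. *Setd2* was at 923 in KD and 3680 in WT, and its only tested transcript fell by 74.9% (95% interval of the change -77.9% to -71.5%, q = 0.0103). Of the markers of fibroblasts, *Col1a1*, *Col1a2*, *Vim*, *Fn1* and *S100a4* were at 134742 or more in each group, and *Thy1* and *Pdgfrb* lay between 2723 and 5314. Of the markers of other cell types, *Cdh1* was at 140 in KD and 90.3 in WT, *Ptprc*, *Pecam1* and *Cdh5* were at 52.0 or below, and *Epcam* had no tested transcript.

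The tested isoforms of *Kdm1a*, *Kdm5c*, *Kmt2b* and *Kmt2a* differ inside their coding sequence by short stretches, which are given before the values since they separate the isoforms. Each line holds coding bases of the named transcript, 5′ to 3′, from the GENCODE M21 annotation of GRCm38. Capitals mark the bases that another tested isoform lacks, and 20 shared bases stand on either side in lower case.
Kdm1a-202: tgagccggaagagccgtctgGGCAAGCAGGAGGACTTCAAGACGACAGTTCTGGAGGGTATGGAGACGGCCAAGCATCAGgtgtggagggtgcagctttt
Kdm5c-203: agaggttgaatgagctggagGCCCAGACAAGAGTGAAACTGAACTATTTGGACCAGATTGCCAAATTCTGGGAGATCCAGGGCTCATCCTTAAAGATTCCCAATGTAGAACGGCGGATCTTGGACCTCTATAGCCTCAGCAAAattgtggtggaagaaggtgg
Kdm5c-202: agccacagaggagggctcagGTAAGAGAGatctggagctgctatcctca
Kmt2b-201: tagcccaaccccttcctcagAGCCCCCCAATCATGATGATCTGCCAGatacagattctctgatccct
Kmt2a-202: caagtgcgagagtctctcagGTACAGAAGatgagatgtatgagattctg
The capitals of *Kdm1a-202* are an exon of 60 bases (chr4:136582040-136582099, minus strand) that *Kdm1a-203* skips, so that the coding frame has 873 codons with it and 853 without it. The capitals of *Kdm5c-203* are an exon of 123 bases (chrX:152239630-152239752, plus strand) that is also in *Kdm5c-202* and is skipped in *Kdm5c-201*, with 1551 codons in *Kdm5c-203* and 1510 in *Kdm5c-201*. The capitals of *Kdm5c-202* come from a later splice donor (chrX:152271930-152271938), absent from both other isoforms. The capitals of *Kmt2b-201* come from an earlier splice acceptor (chr7:30576051-30576077, minus strand). The isoforms of *Kmt2b* differed further by 3 coding bases that only *Kmt2b-202* holds (chr7:30570839-30570841). The capitals of *Kmt2a-202* come from a later splice donor (chr9:44833898-44833906, minus strand) and are the only difference between the isoforms of *Kmt2a*. Each stretch is a whole number of codons, so none of them shifts the reading frame. The isoforms of *Setd1a* share their 1716 codons and differ in the first exon, which starts at chr7:127776670 in *Setd1a-201* and downstream at chr7:127777389 in *Setd1a-202*.

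The demethylase *Kdm1a* and the methyltransferase *Setd1a* had the highest levels per length of transcript among the 10 genes. In WT, the level per kb of a gene, as the sum of its tested transcripts, was 1100 for *Kdm1a*, 916 for *Setd1a* and 839 for *Kdm5c*. It was 505 for *Kmt2b*, 410 for *Kdm5a*, 380 for *Kdm5b* and 205 for *Setd1b*. The lowest levels per kb were those of *Kmt2a* with 167, *Kmt2d* with 149 and *Kmt2c* with 56.4. In KD, *Setd1a* was at 1319, *Kdm5c* at 1100 and *Kdm1a* at 955 per kb, so that *Setd1a* stood first and *Kdm1a* behind *Kdm5c*. These sums carry no error of their own, and no test between genes was made. Of the 19 transcripts, 17 were abundant, by which a mean over the 4 libraries of 100 or more normalised estimated counts is meant here, and the others were *Setd1b-201* and *Setd1b-206*. The median of the means was 1774 for the 19 transcripts and 155 for all transcripts.

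**Figure D1:**
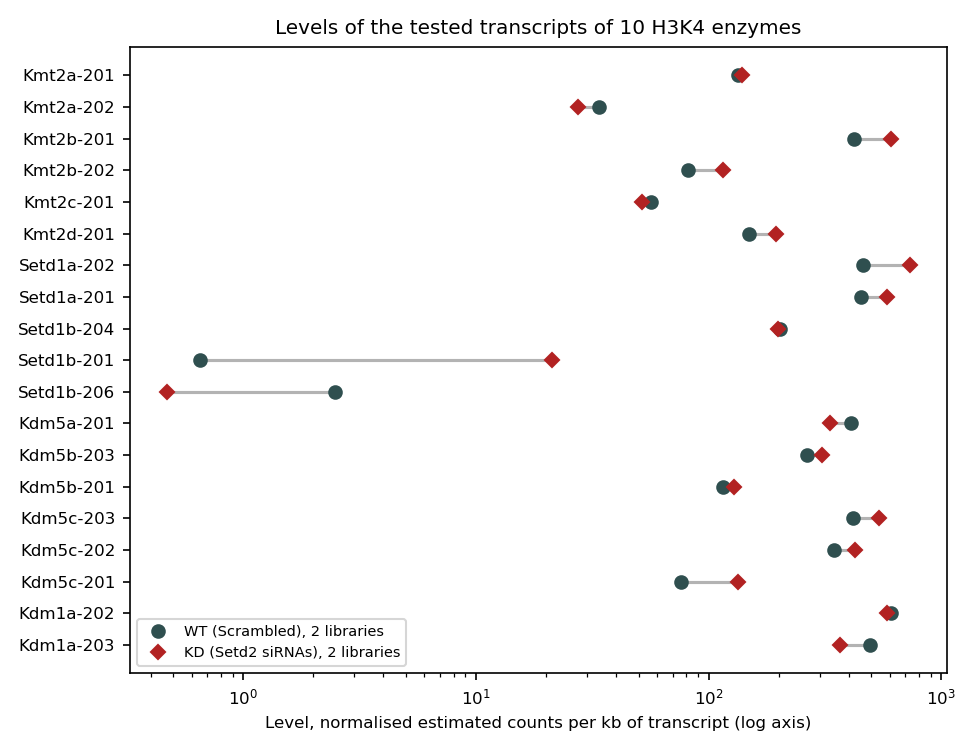
Level of each of the 19 tested transcripts in KD (diamonds) and WT (circles), in normalised estimated counts per kb of transcript on a log axis, each point standing for 2 libraries. *Setd1a-202* moved from 462 per kb in WT to 735 in KD, whereas the points of *Kmt2a-201* and *Setd1b-204* lie almost on each other.

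Transcripts of *Kmt2b* and *Setd1a* rose in KD and the transcript of *Kdm5a* fell, while the other 16 transcripts did not pass the likelihood ratio test, for which the threshold was a q-value of 0.05. This is 15.8% of the transcripts of the 10 genes, beside 12.5% of all transcripts. Over all transcripts, 7.26% were called higher and 5.21% lower in KD. Among abundant transcripts, 17.6% of those of the 10 genes and 21.4% of all were called, so the share of the enzymes was near the background. The Wald test, which sets the effect against its standard error, called 7 of the 19 transcripts, with 5 higher and 2 lower in KD. These were 36.8% beside 18.2% of all, or 41.2% beside 30.5% among abundant transcripts. Transcripts of *Kmt2d*, *Kdm5c* (2 isoforms) and *Kdm1a* were called by the Wald test alone. The median log2(fold change) of the 17 abundant transcripts was 0.21, and that of all abundant transcripts was 0.05. At the level of genes, 6 of the 10 had a deposited likelihood ratio q-value under 0.05, beside 24% of all genes. That 24% covers genes of every level. A share of abundant genes was not computed, so these 2 shares are not matched for level. The 6 genes were *Kmt2b*, *Kmt2d*, *Setd1a*, *Kdm5a*, *Kdm5c* and *Kdm1a*. *Kmt2d* and *Kdm5a* had only 1 tested transcript each, so their gene q-values rest on the p-value of that transcript, adjusted over genes. By the deposited Wald q-value of genes, 5 of the 10 were called, without *Kdm1a*, again beside 24% of all. Over all genes each test called 5258, and 4639 were called by both. A gene q-value carries no direction.

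**Figure D2:**
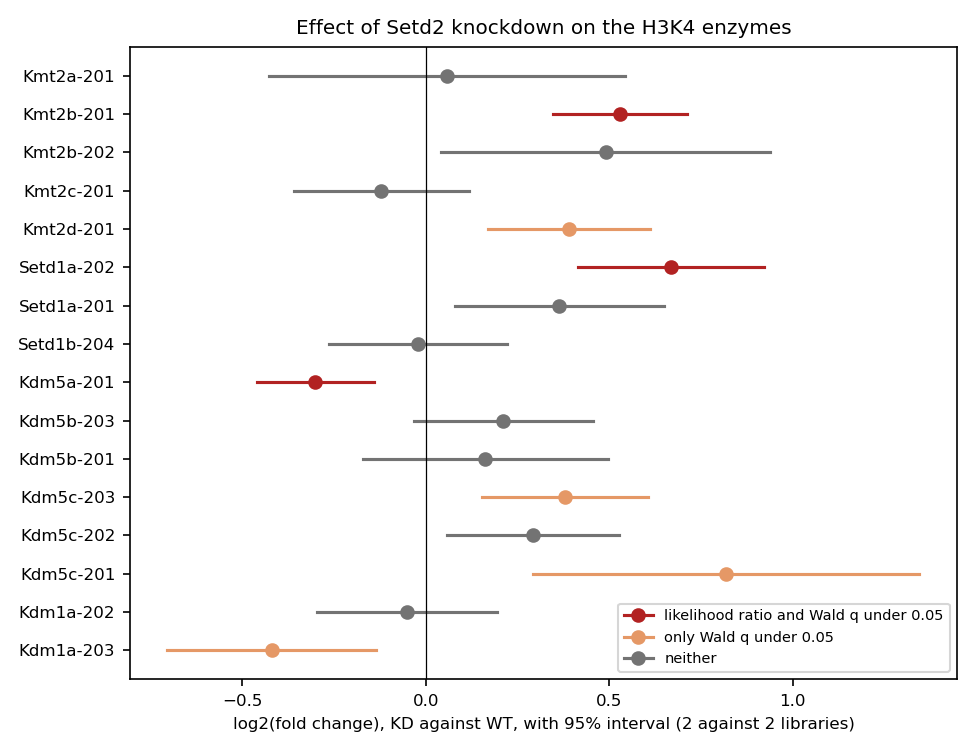
log2(fold change) of KD against WT with its 95% interval for 16 transcripts, coloured by the tests they passed; the *Kmt2a* and *Setd1b* isoforms with intervals wider than the axis (*Kmt2a-202*, *Setd1b-201* and *Setd1b-206*) are left out. *Kmt2b-201* and *Setd1a-202* lie above 0 and *Kdm5a-201* below 0 with both tests passed, and division by *Actb* would move every point down by 0.46.

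*Kmt2b*, which encodes a methyltransferase of promoters with CpG-rich sequence, rose by 44.3% in its leading isoform. *Kmt2b-201* was at 5173 in KD and 3585 in WT, with a log2(fold change) of 0.53 ± 0.09 (SE, 2 against 2 libraries), a likelihood ratio q of 0.0211 and a Wald q of 4.2e-07. The interval of its increase ran from 27.1% to 63.9%. *Kmt2b-202*, which lacks the 27 capital bases given above, was at 970 in KD and 691 in WT. Its log2(fold change) of 0.49 ± 0.23 was close to that of the leading isoform but did not pass the test (q = 0.133). *Kmt2b-201* made up 83.8% of the gene in WT and 84.2% in KD, without a test of this share.

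*Kmt2d*, the enhancer methyltransferase with the longest transcript of the 10 genes, had a log2(fold change) of 0.39 ± 0.11. *Kmt2d-201* was at 3877 in KD and 2958 in WT, with a likelihood ratio q of 0.0546 and a Wald q of 0.00459. Its gene q-value was 0.0373 by the likelihood ratio test and 0.0034 by the Wald test. Since *Kmt2d* had only 1 tested transcript, these rest on the p-values of that transcript, adjusted over genes, and are not further evidence. *Kmt2c*, its close relative, was at 776 in KD and 844 in WT, with a log2(fold change) of -0.12 ± 0.12 and a q of 0.138. Its interval ran from -0.36 to 0.12 and, with the normal quantile, did not reach the increase of *Kmt2d* or of *Kmt2b-201*. The difference between these genes was not tested. *Kmt2a*, the founding member of the family, was at 2283 in KD and 2194 in WT for *Kmt2a-201*. The log2(fold change) was 0.06 ± 0.25 with a q of 0.583, and its interval from -0.43 to 0.54 leaves room for changes in both directions. *Kmt2a-202* was at 453 in KD and 556 in WT. Only 37 of its words of 31 bases occurred in no other tested transcript, and the uncertainty of assigning reads, 1.55 on the log2 scale, made up most of the standard error of 1.56.

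*Setd1a*, which encodes the catalytic subunit of a main promoter complex, rose most in the isoform with the downstream first exon. *Setd1a-202* was at 4355 in KD and 2740 in WT, with a log2(fold change) of 0.67 ± 0.13, a likelihood ratio q of 0.0252 and a Wald q of 5.2e-06. This was an increase of 58.9% (95% interval 33.3% to 89.6%). *Setd1a-201*, with the upstream first exon, was at 3790 in KD and 2944 in WT, with a log2(fold change) of 0.36 ± 0.15 and a q of 0.099. The share of *Setd1a-202* was 50.5% in WT and 55.7% in KD. Whether the isoforms differed in effect was not tested, since the error that they share is not in the tables used here. Of the words of 31 bases in *Setd1a-202*, 40.2% occurred in no other gene of the annotation, since the read-through gene *Gm49388* overlaps with it. The tested transcript of *Gm49388* was at 4.54 in KD and 3.59 in WT (q = 1), and *Hsd3b7*, at the far end of that read-through, was at 663 in KD and 703 in WT in its leading transcript (q = 0.319).

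*Setd1b*, the paralog of *Setd1a*, showed no comparable difference in its leading transcript. *Setd1b-204* was at 1760 in KD and 1787 in WT, with a log2(fold change) of -0.02 ± 0.12 and a q of 0.169. The interval from -0.27 to 0.22, with the normal quantile, did not reach the increase of *Setd1a-202*, and the difference between them was not tested. *Setd1b-201* was at 157 in KD and 4.79 in WT, but its standard error of 3.53 on the log2 scale was nearly as large as its log2(fold change) of 4.89 (q = 0.297). None of its words of 31 bases was absent from the other tested transcripts. *Setd1b-206* was at 3.53 in KD and 18.5 in WT (q = 0.718).

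*Kdm5a* was the only one of the 19 transcripts that was called lower by the likelihood ratio test. *Kdm5a-201*, which encodes a demethylase that was first described as a partner of the retinoblastoma protein, was at 3639 in KD and 4485 in WT. The log2(fold change) was -0.30 ± 0.08, so that it fell by 18.9% (95% interval of the change -27.3% to -9.39%), with a likelihood ratio q of 0.0323 and a Wald q of 0.00201. This call was lost with limma's moderated test (adjusted p = 0.0622) and after the effects were centred on the GC trend (q = 0.0874). *Kdm5b* was at 1659 in KD and 1434 in WT for *Kdm5b-203*, with a log2(fold change) of 0.21 ± 0.12 (q = 0.173). *Kdm5b-201*, which ends further downstream, was at 1121 in KD and 1002 in WT, with a log2(fold change) of 0.16 ± 0.17 (q = 0.382).

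*Kdm5c*, the X-linked member of the family, had a gene q-value of 0.00266 by the likelihood ratio test, the smallest of the 10 genes by that test, and of 3.35e-05 by the Wald test, by which *Kmt2b* and *Setd1a* had smaller ones, although none of its 3 isoforms passed the likelihood ratio test alone. *Kdm5c-203* was at 3497 in KD and 2689 in WT, with a log2(fold change) of 0.38 ± 0.12, a likelihood ratio q of 0.0578 and a Wald q of 0.00777. *Kdm5c-202* was at 2505 in KD and 2046 in WT, with a log2(fold change) of 0.29 ± 0.12 and a likelihood ratio q of 0.0898. *Kdm5c-201*, which skips the exon of 123 bases, was at 738 in KD and 418 in WT, with a log2(fold change) of 0.82 ± 0.27. Its likelihood ratio q was 0.0527, its Wald q 0.0159 and its adjusted p by limma 0.0321. It made up 9.02% of the gene in WT and 12.1% in KD. The difference between the isoforms was not tested, and only 30 words of 31 bases set *Kdm5c-201* apart from all other tested transcripts.

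*Kdm1a*, the flavin-dependent demethylase of the CoREST complex, had isoforms with different values. *Kdm1a-202*, with the exon of 60 bases, was at 1778 in KD and 1843 in WT, with a log2(fold change) of -0.05 ± 0.12 and a q of 0.164. *Kdm1a-203*, without this exon, was at 1106 in KD and 1480 in WT, with a log2(fold change) of -0.42 ± 0.14. Its likelihood ratio q was 0.0573, its Wald q 0.0242 and its adjusted p by limma 0.0523. The share of the isoform with the exon was 55.3% in WT and 61.5% in KD, without a test of this difference. The gene q-value was 0.0226 by the likelihood ratio test and 0.102 by the Wald test, so the call of the gene rests on the first.

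**Figure D3:**
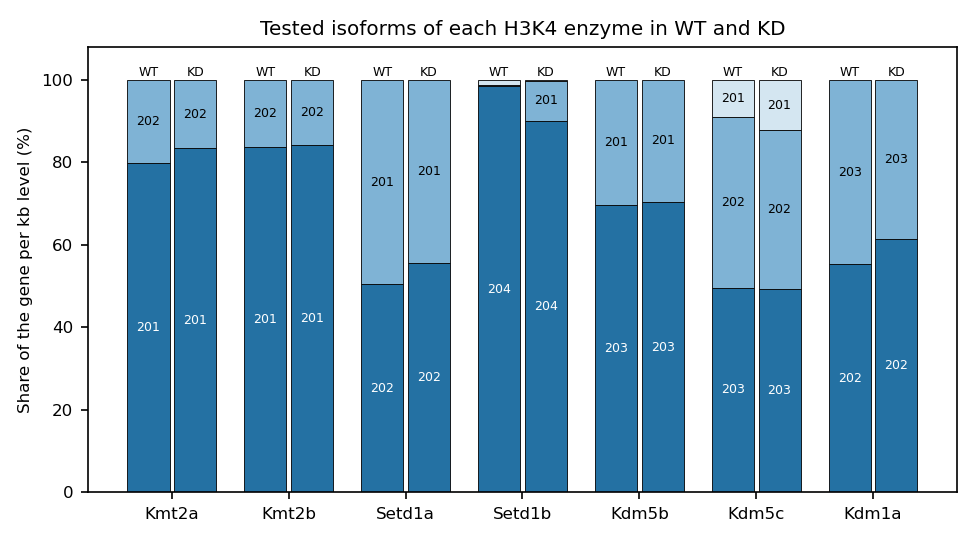
Share of each tested isoform (last 3 digits of its name) in the summed level per kb of its gene, in percent, in WT and KD for the 7 genes with more than 1 tested transcript. *Kdm1a-202* moved from 55.3% to 61.5% and *Kdm5c-201* from 9.02% to 12.1%, whereas the shares of *Kmt2b-201* were 83.8% and 84.2%; no difference in share was tested.

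Added over genes, the methyltransferases stood at 2679 normalised estimated counts per kb in KD and 1999 in WT, a ratio of 1.34, which was 1.16 after centring on GC and 0.977 after division by *Actb*. The ratio was 1.30 for the KMT2 genes and 1.37 for the SETD1 genes, which became 0.946 and 1.00 after division by *Actb*. These sums mixed genes that moved differently. From WT to KD, the level per kb went from 505 to 726 for *Kmt2b* and from 149 to 196 for *Kmt2d*. It went from 167 to 166 for *Kmt2a* and from 56.4 to 51.8 for *Kmt2c*. For *Setd1a* it went from 916 to 1319. *Setd1b* went from 205 to 220, and its leading transcript from 202 to 199. The demethylases stood at 2823 in KD and 2729 in WT, a ratio of 1.03, which was 0.970 after centring on GC and 0.754 after division by *Actb*. Here too the parts differed. The ratio was 1.15 for the KDM5 genes, or 0.836 after division by *Actb*. Within them, *Kdm5c* went from 839 in WT to 1100 in KD, *Kdm5b* from 380 to 435 and *Kdm5a* from 410 to 333 per kb. *Kdm1a* went from 1100 in WT to 955 in KD. Of the 11 methyltransferase transcripts, 2 were called higher and 0 lower by Sleuth's likelihood ratio test (1 lower, *Kmt2c-201*, at an unadjusted p under 0.05, with a Wald p of 0.319), and 3 higher and 0 lower by the Wald test. Of the 8 demethylase transcripts, 0 were called higher and 1 lower by the likelihood ratio test (3 higher, all of *Kdm5c*, at an unadjusted p under 0.05), and 2 higher and 2 lower by the Wald test. No test compared the classes of enzyme. *Actb* itself was higher in KD, with a log2(fold change) of 0.46 ± 0.11 for its leading transcript (q = 0.031). Relative to it, the leading transcripts of *Kmt2b* and *Setd1a* had a log2(fold change) above 0, at 0.073 and 0.21, and those of the other 8 genes lay below 0. No error or test of these differences was computed. The 0.073 of *Kmt2b* was smaller than the SE of its transcript (0.09) and than that of *Actb* (0.11).

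The log2(fold change) of KD against WT moved with the GC content of abundant transcripts, and the enzymes spanned a wide range of it. Whether this trend came from the knockdown was not tested. Over 50 classes of GC content, the median log2(fold change) of abundant transcripts was -0.45 in the class with the lowest mean GC content (36.5%) and 0.23 in that with the highest (63.3%). *Kmt2b-201* has a GC content of 59.1%, *Kmt2d-201* of 58.4% and *Setd1a-202* of 57.2%, whereas *Kdm5a-201* has the lowest among the 19 transcripts, 43.3%. Relative to the median of their GC class, the log2(fold change) was 0.46 for *Setd1a-202* (Wald q = 0.004) and 0.29 for *Kmt2b-201* (q = 0.0156). It was 0.17 for *Kmt2d-201* (q = 0.418), 0.26 for *Kdm5c-203* (q = 0.122) and 0.61 for *Kdm5c-201* (q = 0.122). *Kdm1a-203*, with a GC content of 51.8%, went the other way, with a log2(fold change) of -0.56 relative to its class (q = 0.00165). *Setd1b-204*, with a GC content of 59.0%, was at -0.26 relative to its class (q = 0.171). So 3 of the 19 transcripts were called after centring on GC, beside 15.1% of all transcripts of any level with a known GC content.

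**Figure D4:**
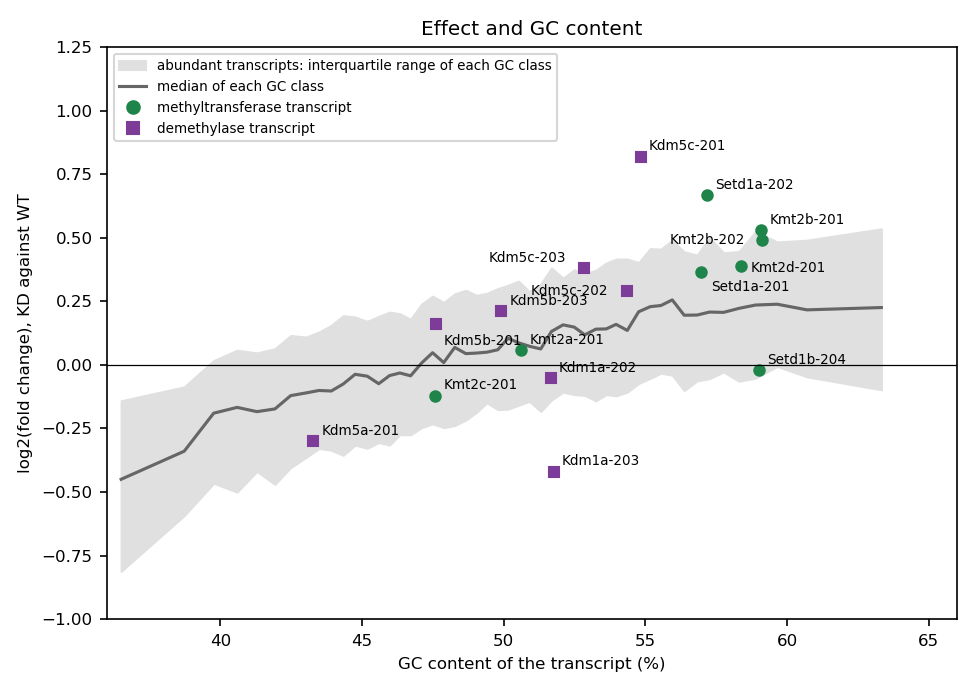
log2(fold change) of KD against WT (vertical axis) against the GC content of the transcript in percent (horizontal axis) for 16 transcripts of the 10 enzymes, over the median (line) and the interquartile range (grey) of 50 GC classes of all abundant transcripts. *Kmt2b-201* and *Setd1a-202* lie above the line, *Kdm1a-203* lies below the grey band, and *Kdm5a-201* lies within it.

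The deposited variances set a limit on how far the libraries of a group can lie apart. For 12 of the 17 abundant transcripts, both KD libraries had to lie on the same side of both WT libraries, which is 70.6% beside 65.3% of all such transcripts. These were both transcripts of *Kmt2b* and of *Setd1a*, all 3 of *Kdm5c*, and *Kmt2c-201*, *Kmt2d-201*, *Kdm5a-201*, *Kdm5b-203* and *Kdm1a-203*. For both transcripts of *Kmt2a*, and for *Setd1b-204*, *Kdm5b-201* and *Kdm1a-202*, the groups had to overlap. The residual SD of *Kdm5a-201* was 0.019 on the log2 scale, the smallest of the 19, while that of *Kmt2a-201* was 0.25. By other tests, limma's moderated test called *Kmt2b-201*, *Setd1a-202* and *Kdm5c-201*, beside 9.68% of all transcripts. When the likelihood ratio p-values were adjusted again over abundant transcripts only, 7 of the 17 were called, beside 34.2% of all. After centring on the median effect, the Wald test called 7 of the 19, beside 17.9% of all. The 9.68% and the 17.9% include transcripts that were not abundant, so they are not matched for level.

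The partner lists covered genes for subunits and partners of these enzymes, for other H3K4 enzymes, for H2B ubiquitination and for proteins that bind methylated H3K4. They were 7 lists with 62 genes and 161 tested transcripts, and only RNA was measured. Of these transcripts, 11 rose and 10 fell in KD, which is 6.83% and 6.21%, close to the shares of all transcripts. The Wald test called 16 higher and 14 lower, and with effects centred on GC 8 higher and 17 lower, and relative to *Actb* 5 of the 11 rises kept a log2(fold change) above 0. Of the 13 transcripts of the shared core, 1 rose (7.69%, beside 12.5% of all transcripts called in either direction). It was that of *Dpy30*, from 3818 in WT to 4676 in KD with a log2(fold change) of 0.29 ± 0.08 (q = 0.0359). *Wdr5*, which binds the catalytic subunits, was at 4309 in KD and 4528 in WT in its only tested transcript (-0.07 ± 0.08, q = 0.0753). Of the 25 transcripts for subunits of single complexes, 4 rose and 1 fell, which is 20% of the list. The largest rises were those of *Hcfc1*, a chromatin cofactor of the SETD1 complexes (0.46 ± 0.09, q = 0.02), and of *Wdr82*, which tethers these complexes to RNA polymerase II (0.43 ± 0.08, q = 0.0167). *Men1*, the menin subunit of the KMT2A and KMT2B complexes, fell from 1800 in WT to 1169 in KD in its leading transcript (-0.62 ± 0.12, q = 0.0178). The other tested transcripts of *Men1* were not called and did not share a direction. Their log2(fold changes) were 0.14 ± 0.68, 0.17 ± 0.35, 2.70 ± 2.44 and -0.54 ± 0.96.

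Among the 13 transcripts listed as other H3K4 methyltransferases, 2 fell and 0 rose, with 1 higher at an unadjusted p under 0.05 and 0 by the Wald test. The called share was 15.4%, beside 12.5% of all transcripts. The list holds *Ash1l*, *Kmt2e*, *Prdm9*, *Setd7*, *Smyd1*, *Smyd2* and *Smyd3*. Whether each of them, *Ash1l* and *Kmt2e* among them, acts on H3K4 was not examined. *Setd7*, a monomethyltransferase, fell from 10839 in WT to 6779 in KD (-0.68 ± 0.08, q = 0.0113). *Prdm9*, the methyltransferase of meiotic recombination sites, fell from 295 to 163 in 1 of its 3 transcripts (-0.86 ± 0.23, q = 0.0478). Its leading transcript was at 1300 in WT and 566 in KD (-1.20 ± 1.16, q = 0.452), and the other at 102 in WT and 392 in KD (1.93 ± 1.02, q = 0.156), so the transcripts of *Prdm9* did not share a direction. The list of other H3K4 demethylases holds *Kdm1b*, *Kdm2a*, *Kdm2b*, *Kdm5d* and *Riox1*, whose activity at H3K4 was not examined either. Of its 13 transcripts, 0 passed the likelihood ratio test of Sleuth and 0 the Wald test, while 3 higher and 3 lower had an unadjusted likelihood ratio p under 0.05. Among the 40 transcripts of the CoREST partners of KDM1A, 1 rose and 5 fell, which is 15% beside 12.5% of all transcripts. The median log2(fold change) was -0.29 over the list and -0.01 over all transcripts, without a test of the list. *Gse1* rose (0.60 ± 0.13, q = 0.0286). *Zmym3* fell from 415 in WT to 204 in KD in 1 of its transcripts (-1.03 ± 0.29, q = 0.0373), and a transcript of *Rcor3* was at 32.9 in WT and at 0 in KD (q = 0.0324). This *Rcor3* transcript had a mean of 3.59 over the libraries, so it was not abundant. The other tested transcripts of *Rcor3* were not called, with log2(fold changes) of -0.18, -0.92, 0.32 and 0.16. The deacetylase *Hdac2* and the scaffold *Rcor1* were chosen after their values were seen. *Hdac2* fell in 2 transcripts, by 0.69 ± 0.18 (q = 0.0446) and, in the leading transcript, by 0.40 ± 0.09 on the log2 scale (q = 0.0332). The leading transcript of *Rcor1* fell by 0.30 ± 0.09 on the log2 scale (q = 0.0371).

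Ubiquitination of histone H2B precedes H3K4 trimethylation by the SETD1 complexes and is carried out by the conjugating enzymes UBE2A and UBE2B. Of the 16 transcripts of this list, both of *Ube2b* fell, from 3910 to 2072 in *Ube2b-201* (-0.92 ± 0.09, q = 0.0106) and from 2324 to 1418 in *Ube2b-202* (-0.71 ± 0.10, q = 0.0135). The transcript *Ube2a-209* rose from 397 to 578 (0.54 ± 0.16, q = 0.0437), whereas *Ube2a-201* was at 778 in KD and 943 in WT (-0.28 ± 0.13, q = 0.0929). The called share of this list was 18.75%, beside 12.5% of all transcripts. Among the 41 transcripts of proteins that bind methylated H3K4, 4 rose and 0 fell, with 7 lower at an unadjusted p under 0.05 and 1 by the Wald test. The called share was 9.76%, below the 12.5% of all transcripts. The largest rises were those of *Ing1*, from 48.4 to 132 in 1 of its transcripts (1.44 ± 0.39, q = 0.0464), and of *Phf23*, from 364 to 649 in 1 of its transcripts (0.83 ± 0.19, q = 0.0283). The median log2(fold change) was 0.19 for the core, 0.10 for subunits of single complexes, -0.12 for the list of other methyltransferases (the value of *Ash1l-201*) and 0.10 for H2B ubiquitination. It was 0.09 for the readers, and for other demethylases it lay within 0.01 of 0.

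**Figure D5:**
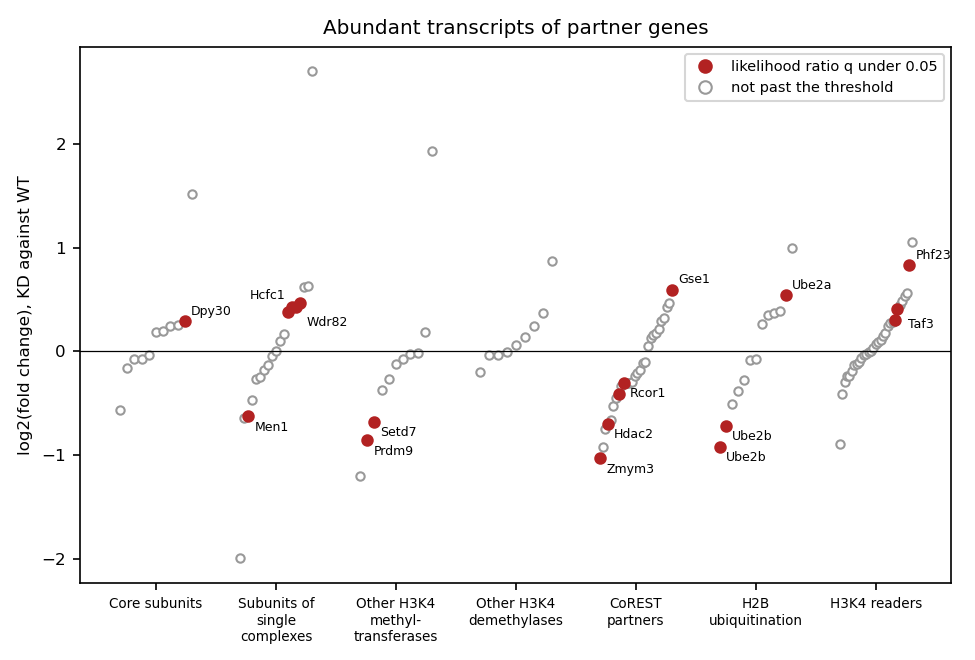
log2(fold change) of KD against WT for the 122 abundant transcripts of the partner lists, by list and sorted within each list, with transcripts past the likelihood ratio test filled. The filled points of the readers lie above 0 and those of the other methyltransferases and, except *Gse1*, of the CoREST partners lie below 0. After centring on GC the Wald test called 3 reader transcripts higher and 2 lower. Of all transcripts of these lists, 9.76% (readers), 15.4% (other methyltransferases) and 15% (CoREST partners) were called, beside 12.5% of all, and no direction of a list was tested.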

How the data were processed

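RNA-seq of NIH/3T3 cells with 2 KD and 2 WT libraries, grouped by the condition in their labels, was analysed. The authors trimmed adapters (BBDuk 38.22), estimated transcript counts (Kallisto 0.44.0) and tested KD against WT (Sleuth 0.30.0). The transcriptome index and the filter on low counts are not given in the sources used here. The authors deposited means, effects and standard errors on the natural log scale, obtained from size-factor normalised estimated counts plus 0.5. Other deposited columns are variances over libraries, between libraries and from read assignment. The authors' p-values and q-values, as deposited, stem from likelihood ratio tests and Wald tests over all transcripts, and for genes they combine the p-values of transcripts. Columns of single libraries were not used.

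log2(fold changes) are effects over the natural log of 2. Intervals are the effect plus or minus a normal quantile times the standard error, and the Wald p-values use the normal distribution too. Neither allows for the 2 residual degrees of freedom, so both look more certain than a t distribution would make them. Group levels were the exponential of the mean plus or minus 0.5 times the effect, minus 0.5. Calls are likelihood ratio q-values under 0.05, without covariates. limma's moderated test (3.58.1, R 4.3.3) was rebuilt from the deposited mean, variance and effect of each transcript, with a prior variance that follows the mean, and was tested on simulated data. Positions, lengths, GC content and sequences came from GENCODE M21 (GRCm38), which held 98.6% of the transcripts, 19 of the 19 among them. GC centring used a running median over 50 classes. Words of 31 bases were compared with the annotated transcripts. The alternatives were the Wald and limma tests, a limit of 100 on the mean, centring on the median or on GC, division by *Actb* and a pseudocount of 5. The genes, lists and tests were chosen with earlier results of these data known. All transcripts of the 10 genes were named, and in each partner list at most 2 rises and 2 falls, those with the largest effects. *Hdac2*, *Rcor1*, *Taf3*, *Wdr5* and transcripts that missed the threshold were named beyond this rule, after their values were seen.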

Additional observations from a re-analysis of the deposited data

How the results depend on the processing

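No paired analysis was possible because the tables used here hold 1 comparison over the 4 libraries, with no values of single libraries. For the same reason no library could be left out in turn. The Wald test called 5 transcripts of the 10 genes higher and 2 lower, in place of 2 and 1, and so did the restriction to abundant transcripts with p-values adjusted again. Centring on the median, which also used the Wald test, gave the same 5 and 2 as the uncentred Wald test, and limma's moderated test called 0 lower, with 2 (*Kdm5a-201* and *Kdm1a-203*) at an unadjusted p under 0.05. Under the Wald test, the restriction and the median centring, *Kmt2d* (0.39, 0.39 and 0.34) and *Kdm5c* (0.38, 0.38 and 0.33) passed the threshold with their leading transcripts. *Kdm5a* lost its call with limma (-0.30, adjusted p = 0.0622) and after centring on GC (-0.20, q = 0.0874). *Kmt2a* turned to -0.025 after centring on GC, without a call in either fit. In the partner lists, limma called 6 higher, the restriction to abundant transcripts called 21 higher and 17 lower, and the Wald test called 14 lower without centring, 17 after centring on GC and 16 after centring on the median. Division by *Actb* gave a log2(fold change) of -0.40 for *Kmt2a*, 0.073 for *Kmt2b*, -0.58 for *Kmt2c*, -0.066 for *Kmt2d*, 0.21 for *Setd1a*, -0.48 for *Setd1b*, -0.76 for *Kdm5a*, -0.25 for *Kdm5b*, -0.077 for *Kdm5c*, -0.51 for *Kdm1a* and -2.45 for *Setd2*, which is each value minus the 0.46 of *Actb*. The summed level of *Setd1b* went from 0.085 to -0.022 without the transcripts that were not abundant, and that of *Kdm5a* from -0.30 to -0.34 after centring on the median of all genes. The causes of these shifts were not tested. With 2 libraries a group and an unknown depth, standard errors of the 17 abundant transcripts ran from 0.08 to 1.56 on the log2 scale.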

Other observations

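Small likelihood ratio p-values were frequent among transcripts with an effect near 0. Among 1848 abundant transcripts with a log2(fold change) within 0.05 of 0, the median likelihood ratio p was 0.106, and 28.2% had an unadjusted likelihood ratio p under 0.05. None of them had a likelihood ratio q under 0.05. The Wald test was not compared in these transcripts, since their choice by the size of the effect fixes a small Wald statistic. The counts at an unadjusted likelihood ratio p under 0.05 given for the enzymes and their partners are to be read beside this share. The likelihood ratio q-values of transcripts and of genes stem from the same p-values, so the calls made with them carry this limit too. For *Kdm1a-202*, with a log2(fold change) of -0.05, the likelihood ratio p was 0.0593 and the Wald p 0.679.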
